A study of Mus musculus with 4 samples.

Results

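Immunoglobulin heavy variable (Ighv) genes were examined in cells of mouse gonadal adipose tissue. They were taken as every entry of the gene table whose symbol begins with Ighv, which gave 185 of 31054 entries. A UMI (unique molecular identifier) tags a single captured transcript, and counts of UMIs are given throughout. Because each antibody-secreting cell expresses 1 rearranged heavy chain, plasma cells were then used to read which Ighv gene each cell had chosen. Plasma cells were barcodes with at least 10 UMIs of Mzb1 and at least 2 of Derl3, whose proteins both act at the endoplasmic reticulum. There were 1533 plasma cells among 13878 cells kept after quality control. A cell was given its top gene, the Ighv gene with most UMIs, when it held at least 10 Ighv UMIs, and 1437 plasma cells received one, with no ties.

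An antibody heavy chain is made when a B cell joins 1 variable, 1 diversity and 1 joining segment and splices the result to a constant gene. The constant gene sets the isotype (Ighm for IgM, Igha for IgA, the Ighg genes for IgG), and a class switch replaces Ighm with another constant gene while the variable segment stays the same. The light chain, in mice mostly kappa, carries a variable segment of its own (Igkv). B-1 cells are a B cell lineage of the body cavities and fat-associated lymphoid tissue that secretes natural IgM with little mutation. Ighv11-2 paired with Igkv14-126 and Ighv12-3 paired with Igkv4-91 are textbook B-1 combinations that bind phosphatidylcholine, a membrane lipid.

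The cells came from p16-CreERT2/R26-LSL-tdTomato mice aged 18 months, in which tamoxifen makes cells with an active p16 (Cdkn2a) promoter express the red protein tdTomato. The stromal vascular fraction was stained with CD31 and CD45 antibodies and sorted into 4 groups by CD45 (a leukocyte protein) and tdTomato, and all 4 groups shared genotype, age and tamoxifen. The mice were male by the study's methods. A group consisted of a single library (n = 1), so differences lack replicates, none was tested, and each describes libraries and not conditions. The number of mice behind a library was not given in the sources used here, and cells of 1 library, or of 1 clone within it, are not independent. Tom+ marks p16high and Tom- p16low cells at the time of tamoxifen. Libraries are called by their sample titles. The protocol text names the CD45- Tom- sort a second time in place of CD45+ Tom-, so the CD45 label of the CD45+ Tom- library, and with it the CD45+ pair, is in doubt. Values for all 4 are listed with both CD45- libraries before both CD45+ libraries and, within each label, Tom+ before Tom-. All intervals are exact 95% intervals and cover counting error only.

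The libraries held 64083756 to 139397501 UMIs in 3429 to 11255 barcodes, of which 3886, 3674, 1927 and 4391 were kept. Plasma cells were 24.4% (interval 23.1 to 25.8) of kept cells in the first Tom+ library and 25% (23.1 to 27) in the other, against 1.09% (0.779 to 1.48) and 1.43% (1.10 to 1.83) in the Tom- libraries. The CD45 label did not separate them. In numbers they were 948, 40, 482 and 63, and 889, 34, 452 and 62 had a top Ighv gene. Jchain, which links IgM into polymers, and Xbp1, a regulator of secretion, had UMIs in 100% of plasma cells of every library, and the surface protein Sdc1 in 94.8 to 98.4%. The mature B cell gene Fcer2a had UMIs in at most 3.17%. UMIs of other cells were also present. The 7 macrophage markers were all detected in each library. They summed to 1152, 297, 1429 and 257 CPM (UMIs of a gene per 1000000 UMIs of the same cells) in plasma cells. The 5 progenitor markers summed to 524 to 773 CPM. The 8 B cell markers, Fcer2a among them, summed to 498, 622, 487 and 545 CPM, so B cell genes were not absent. Scrublet marked 9.89%, 31.0%, 4.74% and 34.4% of plasma cells as doublets, against 2.73 to 9.01% of all cells passing quality control, and these were left out.

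The 4 libraries shared cell barcodes, from 26 in the least to 4394 in the most overlapping of 6 pairs. No barcode was a plasma cell in more than 1 library. Of the plasma cells, 312, 21, 123 and 22 had a barcode that also occurred in another library. In each case the plasma cell was the deeper copy, and the other copy held a median of 1.16 to 2.37% of its UMIs. Without these barcodes the share of cells with Ighv11-2 was 85.5%, 66.7%, 87.6% and 70.0%.

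At the cut of the plasma cell rule, cells just inside it (Mzb1 10 to 14) held a median of 16 Ighv UMIs in the CD45- Tom+ library and 20.5 in the CD45+ Tom+ library, and those just outside (Mzb1 5 to 9) held 10 and 11.5, against 53 in all plasma cells of both. The Tom- libraries had no cell just inside and 1 and 2 just outside.

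The Ighv genes lie on chromosome 12, between positions 113572927 and 116010093 of the mm10 (GRCm38) build, a stretch of 2.44 Mb, and 183 of 185 are on the minus strand. In the GENCODE vM21 annotation, 113 are of the type IG_V_gene, 70 are pseudogenes and 2 are of the type IG_LV_gene, in 16 families. Many are near copies. The median identity of a gene's variable exon to its nearest relative was 93.8%, and 16 genes had a relative at least 98% identical. Still, 136 of 185 had no stretch of 100 bases in common with another. The exons below show the genes on which the results turn, as germline variable segments after the leader peptide, read 5′ to 3′ on the coding strand from GENCODE vM21 transcripts.

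The leading gene, Ighv11-2 (ENSMUSG00000096108), is shown beside its near copy Ighv11-1, which lies 66.4 kb from it. Capitals mark the 4 positions of 296 at which they differ (98.6% identical), and 82.6% of the 100-base windows of the Ighv11-2 transcript occur in no other annotated immunoglobulin transcript. Ighv11-2 is at chr12:114048241-114048536 and Ighv11-1 at chr12:113981879-113982174, both on the minus strand.
Ighv11-2: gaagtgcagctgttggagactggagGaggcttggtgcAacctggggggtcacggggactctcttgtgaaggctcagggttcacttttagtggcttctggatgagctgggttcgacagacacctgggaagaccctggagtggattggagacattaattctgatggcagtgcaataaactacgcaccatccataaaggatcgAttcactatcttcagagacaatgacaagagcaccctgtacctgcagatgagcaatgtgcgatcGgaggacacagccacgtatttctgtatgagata
Ighv11-1: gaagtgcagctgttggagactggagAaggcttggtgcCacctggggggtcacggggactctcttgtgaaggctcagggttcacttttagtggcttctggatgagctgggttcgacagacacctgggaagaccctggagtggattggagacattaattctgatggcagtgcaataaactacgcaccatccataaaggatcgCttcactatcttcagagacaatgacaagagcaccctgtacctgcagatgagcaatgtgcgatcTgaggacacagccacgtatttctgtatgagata

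Ighv4-1 (ENSMUSG00000076655), the next most used gene, starts 99.96 kb from Ighv11-2, at chr12:113948282-113948577 on the minus strand. It is shown because it belonged to a separate set of cells with a kappa partner of its own. Its nearest relative, Ighv4-2, is 95.8% identical.
Ighv4-1: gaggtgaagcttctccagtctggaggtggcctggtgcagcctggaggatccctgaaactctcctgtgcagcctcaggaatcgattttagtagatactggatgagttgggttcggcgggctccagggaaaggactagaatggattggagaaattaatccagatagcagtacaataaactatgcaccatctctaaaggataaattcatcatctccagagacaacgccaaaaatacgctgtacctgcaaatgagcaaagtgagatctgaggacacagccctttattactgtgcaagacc

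Ighv1-53 (ENSMUSG00000093894) at chr12:115158403-115158696 and Ighv1-55 (ENSMUSG00000095589) at chr12:115208095-115208388, both on the minus strand, are shown because their UMIs occurred together in the same cells. They differ at 15 of 294 positions, marked in capitals, an identity of 94.9%.
Ighv1-53: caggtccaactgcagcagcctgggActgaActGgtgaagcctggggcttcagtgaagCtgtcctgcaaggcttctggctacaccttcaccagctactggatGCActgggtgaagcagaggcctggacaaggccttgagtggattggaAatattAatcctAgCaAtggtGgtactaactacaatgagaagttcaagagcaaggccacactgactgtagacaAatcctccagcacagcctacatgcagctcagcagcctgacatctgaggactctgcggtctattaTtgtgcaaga
Ighv1-55: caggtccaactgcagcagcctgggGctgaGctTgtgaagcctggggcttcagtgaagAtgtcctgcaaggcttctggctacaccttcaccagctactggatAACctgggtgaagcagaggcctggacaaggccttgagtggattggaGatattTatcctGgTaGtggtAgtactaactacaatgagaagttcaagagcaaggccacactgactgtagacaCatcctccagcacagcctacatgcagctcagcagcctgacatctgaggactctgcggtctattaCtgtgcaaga

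The kappa partners of the leading pair of heavy genes lie on chromosome 6, Igkv14-126 at chr6:67896356-67896642 on the plus strand and Igkv19-93 at chr6:68736297-68736583 on the minus strand.
Igkv14-126: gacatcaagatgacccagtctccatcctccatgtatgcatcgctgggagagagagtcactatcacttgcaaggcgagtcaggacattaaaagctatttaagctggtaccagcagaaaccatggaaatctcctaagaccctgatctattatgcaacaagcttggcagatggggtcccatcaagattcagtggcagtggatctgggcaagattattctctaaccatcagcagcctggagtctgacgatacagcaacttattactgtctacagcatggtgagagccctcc
Igkv19-93: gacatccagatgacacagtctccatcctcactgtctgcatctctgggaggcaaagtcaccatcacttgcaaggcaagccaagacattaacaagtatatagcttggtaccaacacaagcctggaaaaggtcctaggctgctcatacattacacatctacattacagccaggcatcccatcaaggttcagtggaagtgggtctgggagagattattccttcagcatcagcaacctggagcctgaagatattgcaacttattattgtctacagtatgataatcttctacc

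Ighv11-2 was the top gene of most plasma cells in every library. It was the top gene of 755 of 889 cells (84.9%, interval 82.4 to 87.2) in the CD45- Tom+ library and of 396 of 452 (87.6%, 84.2 to 90.5) in the CD45+ Tom+ library. In the CD45- Tom- library it was the top gene of 25 of 34 cells (73.5%, 55.6 to 87.1), and in the CD45+ Tom- library of 42 of 62 (67.7%, 54.7 to 79.1). The intervals of the CD45+ pair do not overlap, and those of the CD45- pair do. The gap between Tom+ and Tom- depended on the minimum of Ighv UMIs. With at least 50 per cell, on fewer cells, the Tom- shares were 92.3% and 87.1%. The Tom+ shares ranged over all settings from 83.9 to 89.0% and from 86.9 to 91.2%. In all, 1218 of 1437 cells had Ighv11-2.

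Ighv4-1 was the top gene of 43 of 889 cells (4.84%, 3.52 to 6.46) in the CD45- Tom+ library and of 26 of 452 (5.75%, 3.79 to 8.32) in the CD45+ Tom+ library. It was the top gene of 0 of 34 and 0 of 62 cells of the Tom- libraries, which allows shares of up to 8.82% and 4.84%. Neither limit lies below the interval of its Tom+ partner, so a difference in share was not detectable at these cell numbers. Not a single Ighv4-1 UMI was counted in plasma cells of either Tom- library, against 5809 and 3754 in the Tom+ libraries.

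Ighv1-53 came next, with 19 (2.14%, 1.29 to 3.32), 5 (14.7%, 4.95 to 31.1), 8 (1.77%, 0.767 to 3.46) and 3 cells (4.84%, 1.01 to 13.5). Its share was higher in the CD45- Tom- library, on 5 cells, than in the CD45- Tom+ library beyond counting error. The intervals of the CD45+ pair overlap. Ighv12-3, the other phosphatidylcholine-associated heavy gene, was the top gene of only 7 (0.787%), 0, 1 and 1 cells. Ighv14-3, which was singled out after its values were seen, had 2 cells in each of the first 3 libraries and 4 of 62 (6.45%, 1.79 to 15.7) in the CD45+ Tom- library.

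**Figure D1:**
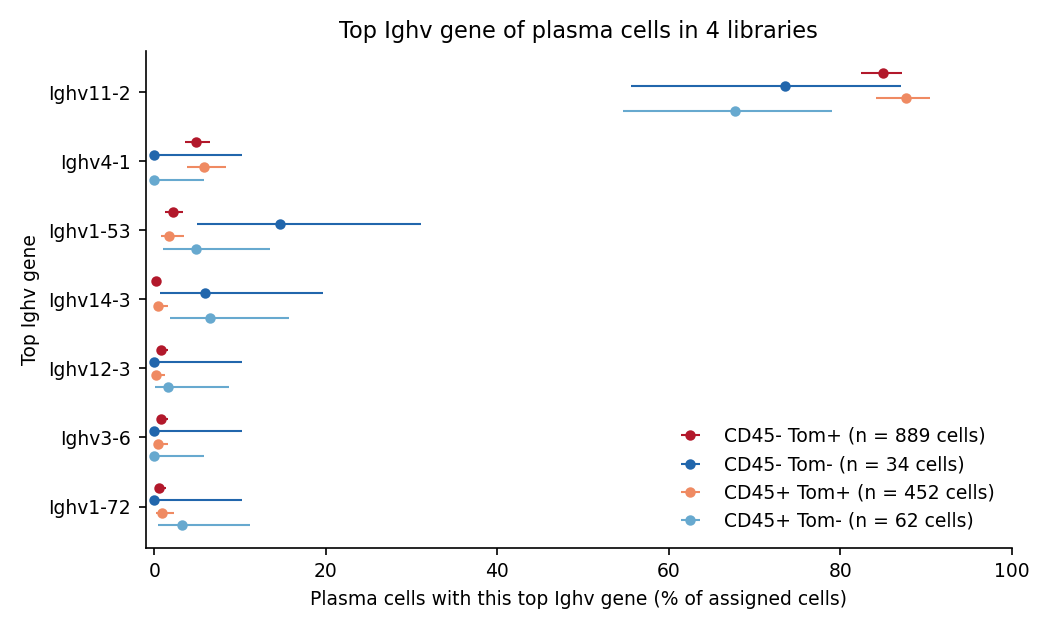
Percentage of assigned plasma cells (x axis) whose top Ighv gene was each of 7 genes (y axis), in 4 libraries marked by colour, with exact 95% intervals as bars. Ighv11-2 lies between 67.7% and 87.6% in the 4 libraries, and no other gene lies above 14.7%.

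The remaining genes were used by few cells. In all, 42 Ighv genes were the top gene of at least 1 cell, 17 of them of exactly 1 cell and 5 of 10 or more. Only 3 genes were seen in all 4 libraries (Ighv11-2, Ighv1-53 and Ighv14-3) and 23 in 1 library only. No pseudogene was a top gene, and 71 of the 113 IG_V_gene entries never were. Over all plasma cells, 107 of 185 Ighv genes had no UMI and 27 had 1 to 9. Of the 219 cells with a gene other than Ighv11-2, 96 used family 1, the largest family, 69 used family 4 (Ighv4-1 alone), 14 used family 14 and 9 each used families 3 and 12. In the CD45- Tom+ library the 57 family 1 cells were spread over 19 genes.

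The skew was measured as the effective number of genes (the inverse Simpson index, which is 1 when all cells use the same gene). It was 1.38, 1.76, 1.30 and 2.13, and 1 gene held over 50% of the cells in each library. The number of genes seen was 37, 5, 16 and 13, but these libraries differ in cell number. At a common number of 34 cells, 4.99, 5, 3.92 and 9.12 genes would be expected. When Ighv11-2 cells were left out, the effective number was 7.33 (134 cells), 2.61 (9 cells), 3.97 (56 cells) and 9.09 (20 cells).

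The usage of a pair of libraries was compared as the sum over genes of the smaller share, which is 100% for identical usage. It was 94.4% for the Tom+ libraries and 81.4% for the Tom- libraries, and 71.3 to 76.2% for the 4 pairs of a Tom+ and a Tom- library. Without Ighv11-2 cells it was 66.6% for the Tom+ libraries, 45% for the Tom- libraries and 17.9 to 34.1% for the others. The Tom- libraries rest on 9 and 20 such cells.

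Ighv UMIs were scarce relative to the rest of the antibody transcript. The libraries were made with a 3′ kit, and the variable segment lies at the 5′ end of the transcript. Immunoglobulin genes held 42.2 to 46.5% of all UMIs of plasma cells, but Ighv genes only 0.138%, 0.114%, 0.138% and 0.125%. The number of Ighv UMIs in Ighv11-2 cells ranged from 10 to 399 with a median of 57 in the CD45- Tom+ library, from 13 to 177 with a median of 44 in the CD45- Tom- library, from 10 to 433 with a median of 56 in the CD45+ Tom+ library and from 14 to 337 with a median of 58 in the CD45+ Tom- library. The ranges overlap almost wholly. Ighv4-1 cells held 28 to 377 (median 135) in the CD45- Tom+ library and 19 to 365 (median 132) in the CD45+ Tom+ library. Per 1000 heavy constant UMIs of the same cell, the medians were 9.06 and 8.54 Ighv UMIs in Ighv11-2 cells of the Tom+ libraries. In Ighv4-1 cells of these libraries they were 22.3 and 21.6. The annotated variable transcripts are 461 and 414 bases long, and the part of capture in this difference was not tested. Cells with other genes held medians of 27 to 36 Ighv UMIs.

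Almost all Ighv UMIs of a cell came from 1 gene. The top gene held a median of 100% of a cell's Ighv UMIs in every library, and 914 of 1218 Ighv11-2 cells (75.0%) had UMIs of no other Ighv gene. The near copy Ighv11-1 received 20 of 82449 Ighv UMIs of Ighv11-2 cells (0.0243%), so the 98.6% identity did not split that gene in the deposited counts. Ighv1-53 was the exception among the named genes. Its cells held a median of 73.0% of Ighv UMIs in the top gene, and Ighv1-55 was the second gene in 31 of 35. Ighv1-55 received 22.8%, 25.2%, 26.3% and 24.8% of the Ighv UMIs of Ighv1-53 cells, nearly the same part in every library. It received 0.0327% of the Ighv UMIs of Ighv11-2 cells. The use of Ighv1-53 and Ighv1-55 is therefore uncertain, and whether reads of 1 transcript were counted for both was not tested.

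A second Ighv gene with at least 10 UMIs was found in 40 of 889 cells (4.50%), 0 of 34, 19 of 452 (4.2%) and 2 of 62 (3.23%). The commonest combination was Ighv11-2 with Ighv4-1, in 15 and 8 cells of the Tom+ libraries. Cells with a second gene had more genes detected, with a median of 4577 against 3739 in the CD45- Tom+ library and of 4862 against 3863 in the CD45+ Tom+ library. These cells had not been marked by Scrublet.

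**Figure D2:**
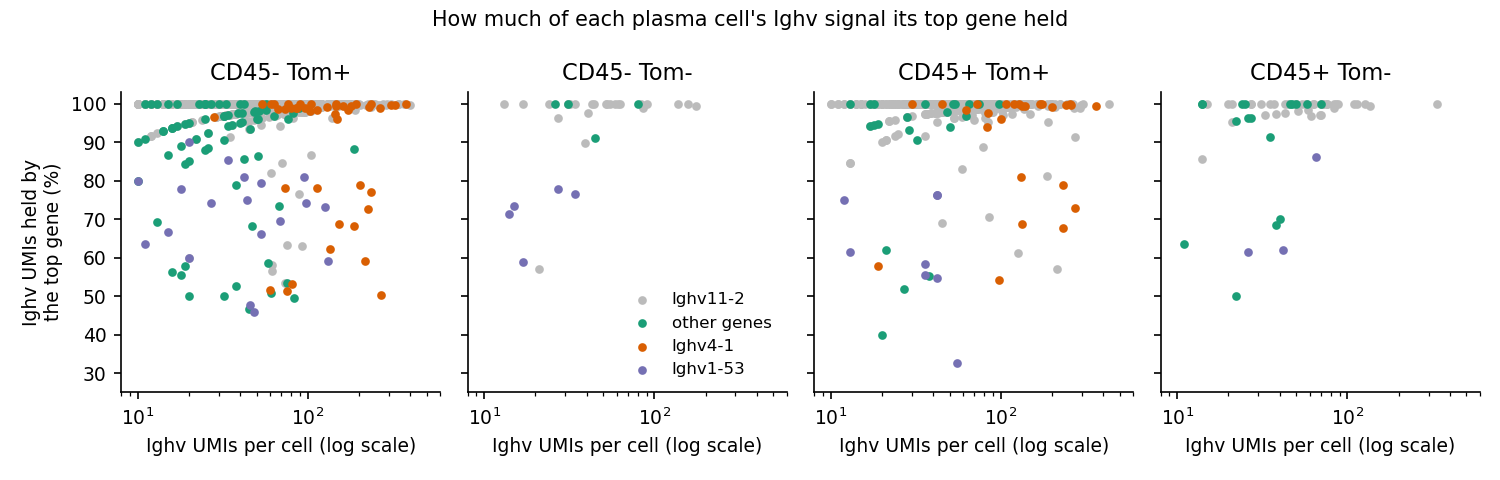
Percentage of a plasma cell's Ighv UMIs held by its top gene (y axis) against its Ighv UMIs (x axis, log scale), 1 point per cell and 1 panel per library, coloured by top gene. Most cells lie at 100%, while Ighv1-53 cells lie lower (median 73.0%) and 19 of 69 Ighv4-1 cells lie below 80%.

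Nearly every plasma cell was of the IgM isotype. Ighm was the leading constant gene of 1524 of 1533 plasma cells, and no cell was led by Ighd, Ighg3 or Ighe. The other 9 were 5 Igha, 2 Ighg2c, 1 Ighg2b and 1 Ighg1 cells, 6 of them in the CD45- Tom+ library and 3 in the CD45+ Tom+ library. The Tom- libraries had 0 of 40 and 0 of 63, which allows shares of up to 7.50% and 4.76%, so a difference between libraries was not detectable at these cell numbers.

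Ighv11-2 cells were IgM without exception, 0 of 1218 having another leading isotype, which allows a share of up to 0.246%. Of the 219 cells with other genes, 8 (3.65%, 1.59 to 7.07) were not IgM. This held in both Tom+ libraries, with 0 of 755 (up to 0.397%) against 5 of 134 (3.73%, 1.22 to 8.49) and 0 of 396 (up to 0.758%) against 3 of 56 (5.36%, 1.12 to 14.9). The interval of the other genes lies above the limit for Ighv11-2 in both. None of the 69 Ighv4-1 cells had switched either, which allows up to 4.35%, and with these set aside the share was 8 of 150 (5.33%, 2.33 to 10.2).

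The switched cells used genes from several families. In the CD45- Tom+ library, IgA cells had Ighv5-15 and Ighv1-9, an IgG2b cell had Ighv1-53, and IgG2c cells had Ighv1-76 and Ighv8-8. The remaining IgA cell held only 6 Ighv UMIs, 4 of them of Ighv1-53. In the CD45+ Tom+ library, both IgA cells had Ighv14-3 with Igkv12-98, and the IgG1 cell had Ighv1-85. The IgG2c cell with Ighv1-76 carried 12923 Ighg2c and 7430 Ighm UMIs. One Ighv11-2 cell also carried a second constant gene in quantity, with 3898 Ighm and 2492 Igha UMIs. The IgG2b cell had 86.6% of its heavy constant UMIs in Ighg2b. With marked doublets kept, all Ighv11-2 cells still led with Ighm, and the other cells of the Tom- libraries were 93.3% and 90.9% IgM.

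The light chain, which the assignment of the heavy gene did not use, separated the cells in the same way. Of Ighv11-2 cells with at least 10 Igkv UMIs, the top kappa gene was Igkv14-126 in 744 of 753 (98.8%, 97.7 to 99.5), 23 of 25 (92.0%, 74.0 to 99.0), 395 of 396 (99.7%, 98.6 to 100.0) and 40 of 42 (95.2%, 83.8 to 99.4). Conversely, 1202 of 1225 cells with Igkv14-126 had Ighv11-2. The Ighv11-2 cells with another kappa gene had mostly Igkv1-135 (9 cells, of which 5, 2, 0 and 2 by library) or Igkv17-127 (3 cells). The combination of Ighv11-2 with Igkv14-126 made up 84.1% of the 1429 cells with both genes assigned. Of 82 heavy and kappa combinations seen, 59 were seen in 1 cell.

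Igkv19-93 led only in Ighv4-1 cells. It was the top kappa gene of 29 of 42 Ighv4-1 cells (69.0%, 52.9 to 82.4) in the CD45- Tom+ library and of 19 of 26 (73.1%, 52.2 to 88.4) in the CD45+ Tom+ library. All 48 cells with Igkv19-93 on top had Ighv4-1. The other Ighv4-1 cells had Igkv14-126 in 13 and 6 cases and Igkv3-5 in 1.

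The Ighv4-1 cells with Igkv14-126 were mostly the ones in which Ighv4-1 held under 80% of the Ighv UMIs. Where it held at least 80%, 29 of 29 and 19 of 20 cells had Igkv19-93. Where it held less (13 and 6 cells), Igkv14-126 led in 13 and 5, while Igkv19-93 UMIs were also present in 13 of 13 and 5 of 6. The medians in the latter cells were 109 and 131.5 UMIs of Igkv14-126 and 31 and 49 of Igkv19-93. They had a median of 4954 and 5108.5 genes detected, against 3816 and 3833 in the former. Such cells thus held both heavy and both kappa genes together with more genes, and whether each was 1 cell or a doublet was not tested. Of Ighv11-2 cells, 6.49%, 0%, 4.29% and 4.76% had any Igkv19-93 UMI.

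Ighv1-53 cells carried kappa genes of family 3. Igkv3-2 was on top in 26 of 35, Igkv3-5 in 8 and Igkv3-10 in 1. Over all cells with 1 of these 3 kappa genes, a grouping made after the values were seen, 62 of 65 had a top heavy gene of family 1 (34 of 35, 5 of 5, 17 of 19 and 6 of 6 by library). They were Ighv1-53 in 35, Ighv1-72 in 9, Ighv1-20 in 5 and Ighv1-26 in 4, with the rest spread over other family 1 genes. Ighv1-72 is 99.0% identical to its nearest relative, so these names are uncertain. Ighv12-3 cells had Igkv4-91 in 8 of 9 cells. Of 10 Ighv14-3 cells, 5 had Igkv4-53, in the Tom- libraries only, where they were 5 of 6.

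**Figure D3:**
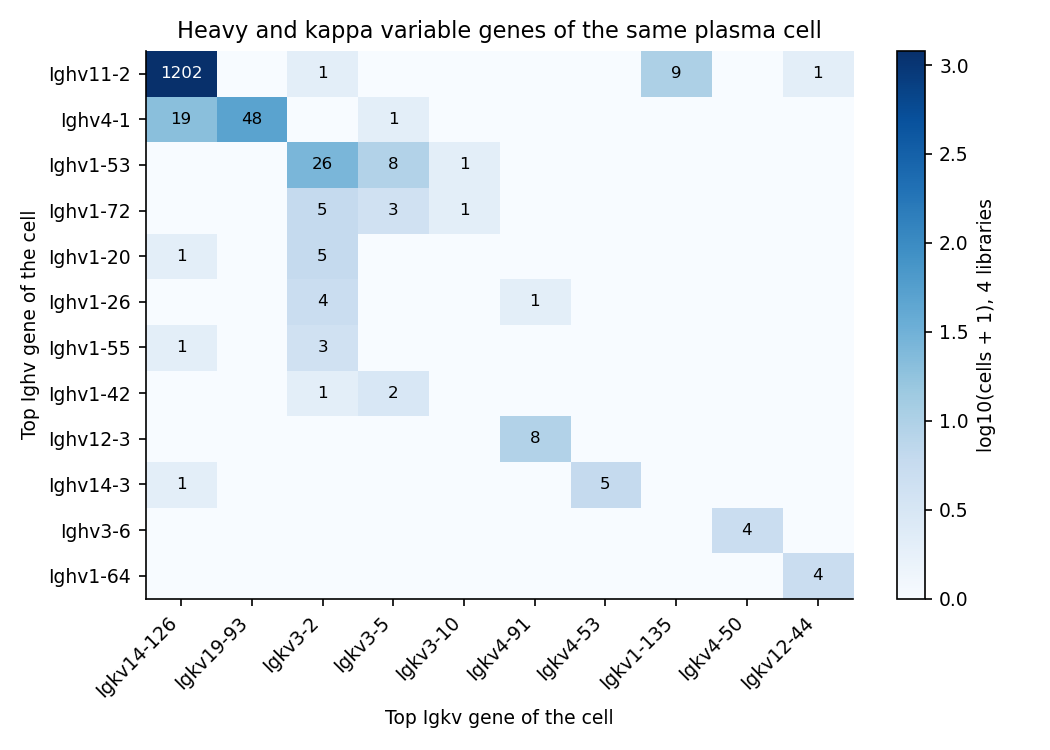
Number of plasma cells, summed over 4 libraries, for each combination of top Ighv gene (y axis) and top Igkv gene (x axis). The colour scale is log10(cells + 1) and empty fields are 0. Ighv11-2 with Igkv14-126 holds 1202 cells, Ighv4-1 with Igkv19-93 holds 48, and family 1 heavy genes fall under Igkv3-2 and Igkv3-5.

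Lambda light chains were rare. The number of cells with more lambda than kappa constant UMIs was 0 among Ighv11-2 cells of every library (0 of 755 in the largest, allowing up to 0.397%) and 0 of 43 and 0 of 26 among Ighv4-1 cells. Among cells with other genes it was 4 of 91 (4.40%, 1.21 to 10.9) in the CD45- Tom+ library and 1 of 30 (3.33%, 0.0844 to 17.2) in the CD45+ Tom+ library.

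Levels of Ighv genes over all plasma cells were then compared between Tom+ and Tom- libraries of the same CD45 label, as log2 ratios of summed CPM. Only genes that averaged 5 CPM or more across both sides entered and were called at a 2-fold or larger ratio. Of all 7474 genes in the CD45- pair, 6.11% were called, and of 7415 in the CD45+ pair 6.41%. Of the Ighv genes, 6 of 7 and 10 of 12 were called, 1 higher and 5 lower in Tom+ in the CD45- pair and 1 higher and 9 lower in the CD45+ pair. Most of them passed the filter through UMIs of a few cells of the small Tom- library, so these counts follow from the filter. Over all genes, 3.87% and 4.4% were higher and 2.25% and 2.01% lower, with a median log2 ratio of -0.09 and -0.07.

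Ighv11-2 was not called in either pair. It stood at 1162 CPM in the CD45- Tom+ and 940 CPM in the CD45- Tom- library, a log2 ratio of 0.30 (0.23 to 0.38), and at 1163 against 992 CPM in the CD45+ pair, 0.23 (0.17 to 0.29). Ighv4-1 had log2 ratios of 6.08 (lower limit 5.78) and 7.22 (lower limit 6.92), computed against a floor of 3 counts in the Tom- library. It passed the filter through the Tom+ libraries alone, where it was the top gene of 43 and 26 cells. That it was called therefore follows from the filter. Ighv1-53 was lower in Tom+, at 17.8 against 59.0 CPM and 8.95 against 37.8 CPM, log2 ratios of -1.73 (-2.04 to -1.40) and -2.08 (-2.43 to -1.73). These rest on 92 and 105 UMIs in the Tom- libraries, where Ighv1-53 was the top gene of 5 and 3 cells. In the CD45+ pair the intervals of its share of cells overlap. Ighv14-3 had log2 ratios of -5.33 (-5.77 to -4.90) and -4.67 (-5.13 to -4.22), resting on 111 and 170 UMIs in the Tom- libraries, where it was the top gene of 2 and 4 cells. The macrophage markers in plasma cells, given above, were also higher in the Tom+ libraries, and their part in these ratios was not tested. Fewer cells using a gene and less RNA per cell cannot be told apart in such sums.

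tdTomato was measured in Ighv11-2 cells at 615, 24.3, 631 and 24.0 CPM, which followed the Tom labels. Within the CD45- Tom+ library it was 615 CPM (607 to 623) in Ighv11-2 cells, 831 (794 to 870) in Ighv4-1 cells and 577 (553 to 603) in cells with other genes. Within the CD45+ Tom+ library it was 631 (620 to 642), 786 (739 to 836) and 737 (686 to 790), and within the CD45+ Tom- library 24.0 (17.7 to 31.9) in Ighv11-2 cells and 49.3 (34.9 to 67.7) in cells with other genes. By summed CPM, cells with other genes thus stood below Ighv11-2 cells in the first of these libraries and above them in the CD45+ libraries. Counted per cell, the CD45+ Tom+ library went the other way. There 86.7% of cells with other genes had a tdTomato UMI, with a median of 25.5 UMIs, against 99.7% and 30 in Ighv11-2 cells. In the CD45+ Tom- library the shares were 75.0% and 54.8%, with a median of 1 UMI in both. Cdkn2a, which encodes p16, was at 4.05, 8.99, 5.04 and 8.52 CPM in Ighv11-2 cells, and so was not higher in the Tom+ libraries. These values rest on 151, 10, 102 and 17 UMIs. Over all plasma cells Cdkn2a was lower in Tom+ in the CD45- pair, with a log2 ratio of -1.30 (-2.01 to -0.49) on 198 against 17 UMIs. In the CD45+ pair the log2 ratio was -0.87.

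To see whether cells with Ighv11-2 differed outside the immunoglobulin genes, they were compared with the other IgM plasma cells of the same library. There were 755 against 129 cells in the CD45- Tom+, 396 against 53 in the CD45+ Tom+ and 42 against 20 in the CD45+ Tom- library, and the CD45- Tom- library had too few cells (25 against 9). At 2-fold or more, 1.92% of 7516, 3.46% of 7485 and 14.8% of 7308 genes were called, the last with only 20 cells on 1 side. Higher in Ighv11-2 cells were 0.439%, 1.14% and 6.55% of genes and lower were 1.48%, 2.32% and 8.25%. The Ighv genes among them (18, 12 and 14 tested, all called) were fixed by how the cells were chosen. The median log2 ratio of all genes was -0.15, -0.07 and -0.10. Of 6713 genes outside the immunoglobulin loci compared in all 3 libraries, 2463 had the same sign and 12 were 2-fold or more the same way in all. How many genes would share a sign without any link to the Ighv gene was not tested. Ighv11-2 cells had more UMIs, with medians of 46746 against 40396, 47978 against 41971 and 44809 against 34704. The macrophage markers were at 1094 against 1410, 1422 against 848 and 134 against 578 CPM, with no common direction, and the progenitor markers at 714 against 879, 590 against 739 and 563 against 427 CPM.

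Genes lower in Ighv11-2 cells included Gm30211, a predicted gene, with log2 ratios of -2.32 (-2.45 to -2.19), -2.27 (-2.46 to -2.08) and -4.37 (-5.25 to -3.59) in these 3 libraries. UMIs of Gm30211 were found in 27.5%, 29.8% and 14.3% of Ighv11-2 cells and in 82.9%, 79.2% and 70.0% of the others. In the CD45- Tom- library they were found in 6 of 25 Ighv11-2 cells and 6 of 9 others. In progenitor cells (median 23720 to 26758 UMIs), which should lack it, they were found in 0%, 0.150%, 5.56% and 0.134%, below each plasma cell group.

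Lag3, an inhibitory receptor of lymphocytes, had log2 ratios of -2.34 (-2.57 to -2.11), -3.0 (-3.29 to -2.72) and -1.89 (-3.52 to -0.35). The last rests on 7 against 10 UMIs, and in the CD45- Tom- library there were 9 against 1. Lag3 UMIs were in 28.6% and 30.1% of Ighv11-2 cells and 57.4% and 67.9% of other IgM cells of the Tom+ libraries, and in 2.78 to 14.2% of progenitor cells. Prg2, known as the major basic protein of eosinophil granules, had log2 ratios of -1.95 (-2.07 to -1.82), -1.74 (-1.92 to -1.54) and -1.73 (-2.40 to -1.07). Dusp4, a phosphatase acting on MAP kinases, had -1.47 (-1.67 to -1.26), -1.86 (-2.11 to -1.61) and -1.42 (-1.97 to -0.88). Napsa, an aspartic protease, had -2.31 (-2.45 to -2.18) and -3.61 (-3.75 to -3.47) in the Tom+ libraries but, in the CD45+ Tom- library, -0.27 (-0.78 to 0.25).

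For some of these genes Ighv4-1 cells stood highest, with the cells with other genes between them and Ighv11-2 cells. Napsa stood at 258 and 658 CPM in Ighv4-1 cells of the Tom+ libraries, at 49.2 and 90.8 CPM in cells with other genes and at 26.5 and 33.9 CPM in Ighv11-2 cells. In the CD45+ Tom+ library, 3 Ighv4-1 cells held over 50% of the Napsa UMIs of that group. Lag3 stood at 78.5 and 131 CPM in Ighv4-1 cells, 30.3 and 27.3 CPM in cells with other genes and 9.76 and 10.8 CPM in Ighv11-2 cells. Gm30211 stood in the same order, but Ighv4-1 cells and cells with other genes lay closer together. It was at 161 and 178 CPM in Ighv4-1 cells and 138 and 132 CPM in cells with other genes. In Ighv11-2 cells it was at 29.4 and 32.8 CPM.

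Genes higher in Ighv11-2 cells included Zcwpw1, a reader of histone methylation known from meiosis, with log2 ratios of 0.96 (0.84 to 1.08), 0.87 (0.69 to 1.05) and 2.08 (1.64 to 2.55). It was found in 90.6%, 92.0%, 86.6% and 83.3% of Ighv11-2 cells. It was also found in 97.7% and 88.5% of Ighv4-1 cells, but in 47.7%, 11.1%, 40.7% and 25% of cells with other genes. In progenitor cells it was found in 20.4%, 3.52%, 16.7% and 3.96%. On this gene Ighv4-1 cells stood with Ighv11-2 cells. The predicted gene Gm42047 did the same in share, with UMIs in 74.4% and 61.5% of Ighv4-1 cells, 67.9% and 66.9% of Ighv11-2 cells and 25.6% and 18.5% of cells with other genes in the Tom+ libraries. Progenitor cells had it in 12.5 to 15.0%.

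Cox4i2, an isoform of a subunit of cytochrome c oxidase, was higher by log2 ratios of 1.38, 1.80 and 2.36, and Cldn7, a tight junction protein, by 1.35, 0.57 and 1.59. Cox4i2 UMIs were in 59.1% and 60.6% of Ighv11-2 cells of the Tom+ libraries and in 2.40 to 13.9% of progenitor cells. Cxcl13, a chemokine that attracts B cells, had log2 ratios of 2.40, 3.33 and 1.09, but 3, 1 and 1 cells held at least 50% of its UMIs in Ighv11-2 cells. Progenitor cells held 250 to 1608 CPM of Cxcl13, against 11.0 to 51.8 CPM in these Ighv11-2 cells, and the part of free RNA was not tested.

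**Figure D4:**
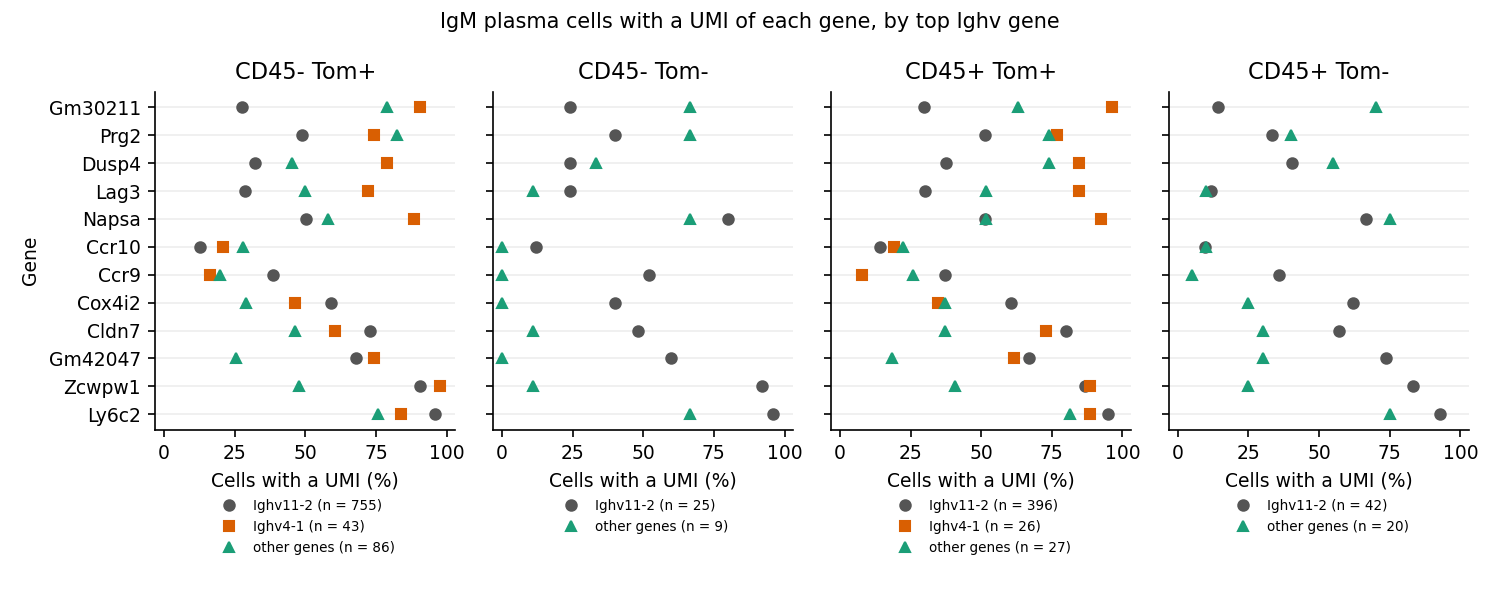
Percentage of IgM plasma cells with a UMI (x axis) of 12 genes (y axis) in 4 libraries, for cells with Ighv11-2 (circles), Ighv4-1 (squares) and other Ighv genes (triangles). Gm30211 lies at 14.3 to 29.8% in Ighv11-2 cells and at 63.0 to 96.2% in the rest, and Zcwpw1 lies at 83.3% or more in Ighv11-2 and Ighv4-1 cells and at 47.7% or less in the others.

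Lists of genes related to B-1 cells, homing, cell division and the plasma cell programme were compared in the same way. Over all genes, 1.92%, 3.46% and 14.8% passed 2-fold in the CD45- Tom+, CD45+ Tom+ and CD45+ Tom- libraries. Of 6 tested genes associated with B-1 cells, 0, 1 and 0 passed 2-fold in the CD45- Tom+, CD45+ Tom+ and CD45+ Tom- libraries, the 1 being Ahr, a receptor for aromatic compounds, at a log2 ratio of -1.10 (-1.61 to -0.55). Their median log2 ratio was -0.18, -0.10 and -0.08, against -0.15, -0.07 and -0.10 over all genes. Bhlhe41, a transcription factor of B-1a cells, stood at 24.7 CPM in Ighv11-2 cells and 24.9 CPM in other IgM cells of the CD45- Tom+ library, a log2 ratio of -0.02 (-0.27 to 0.25). It was at 27.6 against 23.1 and 27.6 against 29.8 CPM in the CD45+ libraries. Cd5, a surface protein of B-1a cells, and Zbtb32 had at most 10 UMIs on either side and were not tested.

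Among homing genes was Ccr9, the receptor that guides cells to the small intestine. It had log2 ratios of 0.71 (0.26 to 1.19), 1.29 (0.46 to 2.26) and, on 28 against 1 UMIs, 3.43 (0.84 to 8.79). It was found in 38.5%, 37.1% and 35.7% of Ighv11-2 cells and in 18.6%, 17% and 5.00% of the others, and in the CD45- Tom- library in 13 of 25 against 0 of 9 cells. Progenitor cells had it in 0.469 to 5.56%. Ccr10, a receptor for chemokines of skin and mucosa, had ratios of -1.76 (-2.15 to -1.36), -0.57 (-1.40 to 0.36) and -1.64 (-3.69 to 0.34), of which only the first excludes 0, and the last rests on 5 against 6 UMIs. Of the 6 homing genes tested, 0, 1 and 1 were 2-fold higher and 1, 0 and 1 lower, and the median log2 ratio was -0.11, 0.05 and 0.02. Over all genes, 0.439%, 1.14% and 6.55% were higher and 1.48%, 2.32% and 8.25% lower.

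None of the 3 tested genes of class switch and proliferation passed 2-fold in any of these libraries. Mki67, a marker of dividing cells, was found in 49.7% of Ighv11-2 cells and 43.4% of other IgM cells in the CD45- Tom+ library, 52.5% and 58.5% in the CD45+ Tom+ library and 28 of 42 and 11 of 20 in the CD45+ Tom- library. Progenitor cells had it in 3.76 to 13.9%. Of 10 genes of the plasma cell programme, 1 passed 2-fold, Ly6c2, a surface protein, with 1.81 (1.65 to 1.97) in the CD45+ Tom+ library against 0.31 and 0.78 in the others. Of all genes, 3.46% passed 2-fold in the CD45+ Tom+ library. In the CD45- Tom+ library 1 cell held 35.3% of the Ly6c2 UMIs of the other IgM cells. Jchain was at 23117 against 31336, 24262 against 34927 and 20049 against 21324 CPM.

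Ighv UMIs were last compared between cell classes, to set the plasma cells against cells that should lack these genes. Progenitor cells (Pdgfra at least 1, Col1a1 at least 5, Ptprc 0 and Mzb1 0 UMIs) served as background, and B cells were those with Cd79a and Ms4a1 below the plasma cell rule. Plasma cells held 1377, 1144, 1382 and 1248 CPM of Ighv. Progenitor cells held 37.0 (27.2 to 49.2), 1.85 (1.42 to 2.38), 19.5 (11.9 to 30.2) and 1.86 (1.46 to 2.34) CPM. The background was thus higher in the Tom+ libraries, where plasma cells were common, and 89.4%, 70.5%, 95% and 75.3% of it was Ighv11-2.

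B cells (139, 181, 62 and 275, with median depths of 5338 to 6807 UMIs) held 153, 41.4, 212 and 56.6 CPM of Ighv. Ighv11-2 made up 70.7% (63.7 to 77.1), 3.92% (0.478 to 13.5), 77.3% (69.2 to 84.1) and 13.1% (7.69 to 20.4) of these UMIs. In the CD45- Tom- library the 2 Ighv11-2 UMIs in B cells compared with 1.61 at the rate of progenitor cells. In the Tom+ libraries there were 133 against 40.6 and 102 against 11.6, and in the CD45+ Tom- library 16 against 3.02. This rate is per UMI, and progenitor cells were deeper (medians of 23720 to 26758 UMIs). Counted per cell, an Ighv11-2 UMI was found in 47.5%, 1.10%, 46.8% and 4.73% of B cells. In progenitor cells the shares were 51.9%, 2.99%, 44.4% and 3.62%. The part of free RNA in B cells was not tested. The plasma cell markers in B cells also stood higher in the Tom+ libraries, at 5006, 794, 4617 and 646 CPM summed over 9 markers, with Derl3 at 0 by the rule, and their part in the Ighv11-2 UMIs was not tested. Ighv genes other than Ighv11-2 stood at 44.7, 39.7, 48.1 and 49.2 CPM in B cells, with overlapping intervals, against 0.459 to 3.93 CPM in progenitor cells. Ighv4-1 had 6, 3, 9 and 2 UMIs in B cells and 2, 3, 1 and 2 in progenitor cells, so traces of it occurred in every library.

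Among B cells with at least 2 Ighv UMIs and a single top gene, Ighv11-2 was on top in 21 of 26, 0 of 4, 10 of 13 and 3 of 18, and the last 18 cells used 14 genes. UMIs of any Ighv gene were found in 99.6 to 100% of plasma cells (median depth 37376 to 45432 UMIs), in 64.0%, 23.8%, 69.4% and 34.9% of B cells and in 55.6%, 4.34%, 44.4% and 4.76% of progenitor cells. At a depth of 2000 UMIs per cell the shares were 83.2%, 85.0%, 87.3% and 82.5% of plasma cells, 26.6%, 10.6%, 27.4% and 11.6% of B cells and 15.1%, 0.300%, 11.1% and 0.336% of progenitor cells.

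**Figure D5:**
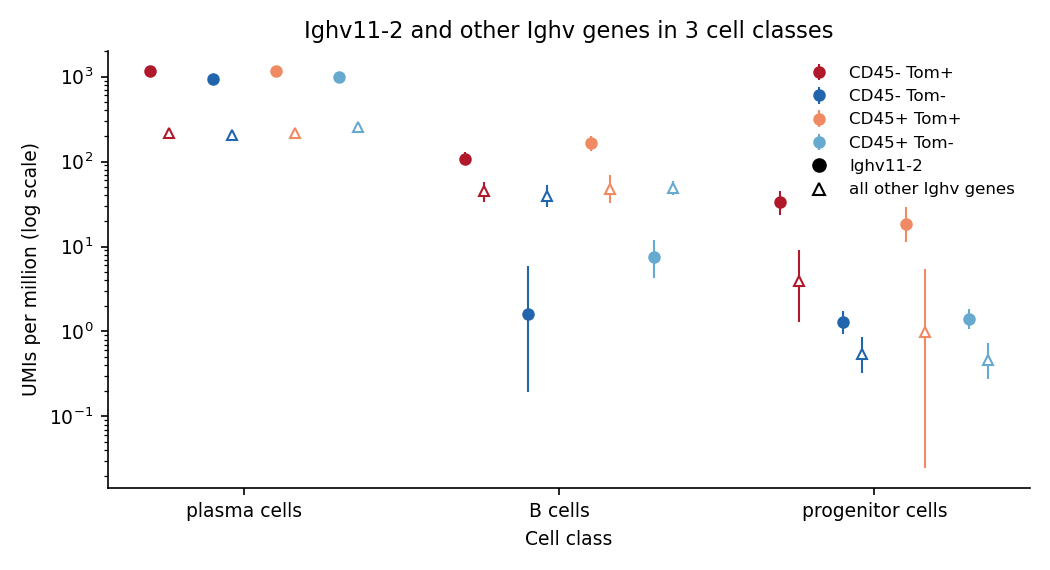
Level in CPM (y axis, log scale) of Ighv11-2 (filled circles) and of all other Ighv genes together (open triangles) in plasma cells, B cells and progenitor cells, coloured by library, with exact 95% Poisson intervals. Ighv11-2 in B cells stands above the other Ighv genes in the Tom+ libraries and below them in the Tom- libraries.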

How the data were processed

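Single-cell RNA-seq libraries of 4 sorted populations were made with the 10x Genomics Chromium 3′ kit v3.1. The deposited matrices hold raw UMI counts per gene and barcode, which the authors made with Cell Ranger 3.0.2 on mm10, with 1 library for each group. No per-sample column was left out (0 unmapped). The submitters' notes name these tools with no further setting.

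Cells were kept with 1000 to 7000 genes and under 8% mitochondrial UMIs, and the share of cells with the highest Scrublet scores (scanpy 1.11.5), 0.8% per 1000 barcodes, was removed as doublets. Totals were 64083756 to 139397501 UMIs per library. The top Ighv and Igkv gene of a cell needed at least 10 UMIs of that kind. Isotype was the heavy constant gene with most UMIs. Levels are summed counts per 1000000 UMIs (CPM), and ratios are log2 ratios of summed CPM with the conditional exact interval of a pair of Poisson counts. Shares carry exact Clopper-Pearson and levels exact Poisson intervals. Where a count was 0, the limit given is 3 counts. A ratio was called at 2-fold or more among genes averaging 5 CPM or more, with at least 20 cells on each side in comparisons within a library. The study's Wilcoxon test over cells was not used, since cells are not replicates. The scripts were tested on simulated data.

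Named were Ighv genes on top in at least 2% of assigned cells of a Tom+ library, Ighv11-2 and Ighv12-3 in any case, their leading kappa and second genes, the genes with the 5 largest and 5 smallest ratios of common sign, and lists of B-1, homing, switching and plasma cell genes. Genes outside this rule, such as Ighv14-3, Ighv1-72 and those of the switched cells, were chosen after their values were seen. Members and lists were chosen with earlier results of these data known.

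Alternatives were no quality filter, doublets kept, looser and stricter plasma cell rules, other minimums of Ighv UMIs, a dominant top gene, shared barcodes left out, near copies joined, a dominant isotype, other scalings and a higher CPM filter. Coordinates are from GENCODE vM21 on mm10. Python 3.11.15, numpy 2.4.6, scipy 1.17.1, pandas 2.3.3, biopython 1.88 and matplotlib 3.10.9 were used.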

Additional observations from a re-analysis of the deposited data

How the results depend on the processing

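Of 449 values recomputed under other settings, 388 stayed within counting error or 1.5 times of the reported value and 61 moved. The direction of no ratio reversed. However, ratios were recomputed only as means of per-cell CPM and relative to UMIs outside immunoglobulin genes. They were not recomputed under other rules for cells, doublets, shared barcodes or Ighv UMIs. Among the limits are 1 library per group, a median of 33 to 53 Ighv UMIs per plasma cell and only 34 and 62 assigned cells in the Tom- libraries. No paired analysis was possible because each group has 1 sample. Why values moved was not tested, except that stricter settings leave fewer cells or genes.

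Among values that moved was the number of genes on top of a cell. Without a quality filter it was 11 in the CD45- Tom- and 22 in the CD45+ Tom- library. In the CD45- Tom- library it was 10 with doublets kept, 8 with at least 1 Ighv UMI and 3 without shared barcodes. With at least 50 Ighv UMIs it was 17, 2, 8 and 5 in the 4 libraries. At that minimum Ighv4-1 was on top in 8.37% and 8.85% of cells of the Tom+ libraries and Ighv11-2 in 92.3% and 87.1% of cells of the Tom- libraries. For Ighv11-2, the CD45- Tom- value lies above the range of its Tom+ partner over all settings. The CD45+ Tom- value lies within that of its partner. At the same minimum Igkv14-126 accompanied 99.5% of Ighv11-2 cells in the CD45- Tom+ library, and the effective number of genes was 1.17 and 1.31 in the Tom- libraries. The likeness of usage was 96.8% between the Tom+ libraries, 88.6% between CD45- Tom+ and CD45+ Tom- and 87.5% between the CD45+ libraries.

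Where the top gene had to hold at least 80% of Ighv UMIs, Ighv11-2 led in 89.0% and 91.2% of cells of the Tom+ libraries, and Igkv19-93 in 100% and 95% of their Ighv4-1 cells. Without shared barcodes, Igkv19-93 led in 91.3% of Ighv4-1 cells of the CD45- Tom+ library and Igkv14-126 in 100% of Ighv11-2 cells of the other 3 libraries.

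The log2 ratio of Ighv11-2 between Tom+ and Tom- in the CD45- pair was 0.50 as a mean of per-cell CPM and 0.41 relative to UMIs outside immunoglobulin genes, and in the CD45+ pair 0.31 by the latter. Genes past 2-fold between Tom+ and Tom- numbered 36 and 53 with at least 50 CPM and 823 and 768 relative to UMIs outside immunoglobulin genes. Between Ighv11-2 and other IgM cells they numbered 27, 28 and 57 and then 232, 465 and 1703. At 2000 UMIs per cell, an Ighv UMI was found in 83.2%, 85.0%, 87.3% and 82.5% of plasma cells. It was then found in 26.6%, 10.6%, 27.4% and 11.6% of B cells and in 15.1%, 0.300%, 11.1% and 0.336% of progenitor cells.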
